A study of Mus musculus with 27 samples.

Results

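A set of 10 genes for proteins that carry copper, platinum drugs and other drugs across membranes was followed in mouse colon during experimental colon cancer and chemotherapy. They were taken by name and comprised the copper importers Slc31a1 and Slc31a2, the organic cation importer Slc22a3, the copper-exporting ATPases Atp7a and Atp7b, and the ATP-binding cassette (ABC) exporters Abcc1, Abcc3, Abcc4, Abcb1a and Abcg2. All 10 were found among the 39971 genes of the deposited table, and 9 of the 10 were among the 15080 genes with enough signal to be tested. Atp7b was not.

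RNA was sequenced from 27 colon samples of wild-type BALB/c mice. The NC group (n = 6) was colon from mice given normal saline by intraperitoneal injection and by gavage. The other groups were segments of colon that bore tumors, from mice exposed to azoxymethane, a carcinogen, and dextran sulfate sodium, an irritant of the colon lining (AOM/DSS). CAC mice (n = 5) then received saline by both routes. CAC_F mice (n = 5) received the chemotherapy FOLFOX by injection and saline by gavage. CAC_FP mice (n = 5) received FOLFOX by injection and complex probiotics by gavage. CAC_FPL mice (n = 6) received the same plus loperamide, an opioid agonist that slows the gut, by gavage. Samples were taken 1 week after chemotherapy began. Tissue source and AOM/DSS exposure coincide between NC and the other groups and cannot be told apart. The labels number the samples within a group and do not tie each to its own mouse, so p-values measure the spread between these samples. They name 1 batch and give no ages.

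FOLFOX combines oxaliplatin, fluorouracil and folinic acid. Oxaliplatin is a platinum compound, and carriers whose usual cargo is something else have been linked to its entry into and exit from cells. SLC31A1 is the high-affinity copper importer of the plasma membrane and has been linked to platinum uptake in cultured cells, and organic cation transporters of the SLC22 family can take up oxaliplatin. ATP7A and ATP7B pump copper into the secretory pathway or out of the cell and can bind platinum. The ABC exporters use ATP to expel drugs and conjugates: the ABCC proteins carry glutathione and glucuronide conjugates, cyclic nucleotides or bile salts, and ABCB1 and ABCG2 line the luminal face of the intestine.

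Library totals ran from 56687812 to 79709845 counts, and no pair of the 60 pairs of libraries within a group agreed within counting error. Colon identity was present throughout: none of the 12 epithelial markers (Epcam, Cdh1, Cdx2 and others) was at 0 in any library, and their summed level was 7236 to 14273 counts-per-million (CPM). CAC replicate 2 and CAC_FPL replicate 3 stood apart in the summed level of 5 distal gut segment markers, at 143 and 394 CPM against 1.72 to 44.3 CPM in the other libraries. Hoxb13 carried most of these sums, at 96.9 and 289 CPM against 0 to 6.03 CPM, and Hoxd13 was high as well, at 7.30 and 47.3 CPM against 0 to 0.895 CPM. Hoxa13 at 37.2 CPM in CAC replicate 2 was inside the range of the other libraries, and Hoxd11 was near the low end of that range in both. CAC replicate 2 also stood apart in Atp7a, Abcc4 and Abcb1a, and values of these genes against CAC are given with and without it where they moved. In bulk tissue, fewer cells of a type and less RNA per cell cannot be told apart. All levels below are in CPM over libraries scaled by trimmed means of M values (TMM), and levels of different genes are set side by side only in FPKM, which divides by gene length.

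Levels per length differed widely among the members. In NC colon the mean level was 70.7 ± 21.0 FPKM for Abcb1a (SD, n = 6), 37.4 ± 10.8 FPKM for Abcc3 and 24.5 ± 1.09 FPKM for Slc31a1. A middle tier held Slc31a2 at 7.16 ± 0.751 FPKM and Abcg2 at 5.36 ± 1.48 FPKM. The levels were 2.31 ± 0.196 FPKM for Abcc1, 1.84 ± 0.425 FPKM for Atp7a and 1.73 ± 0.238 FPKM for Abcc4. Slc22a3 was at 0.478 ± 0.215 FPKM and Atp7b at 0.0283 ± 0.0183 FPKM. The intervals of mean ± 1 SD overlapped between Slc31a2 and Abcg2, between Abcc1 and Atp7a and between Atp7a and Abcc4, and between no other neighbours in this order. Abcb1a was first and Atp7b last in every group. Abcc4 took the eighth place in NC and the fourth in CAC_F, where it stood at 7.00 ± 1.55 FPKM (n = 5), level with Slc31a2 at 6.97 ± 1.61 FPKM. This order is a description without a test.

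**Figure D1:**
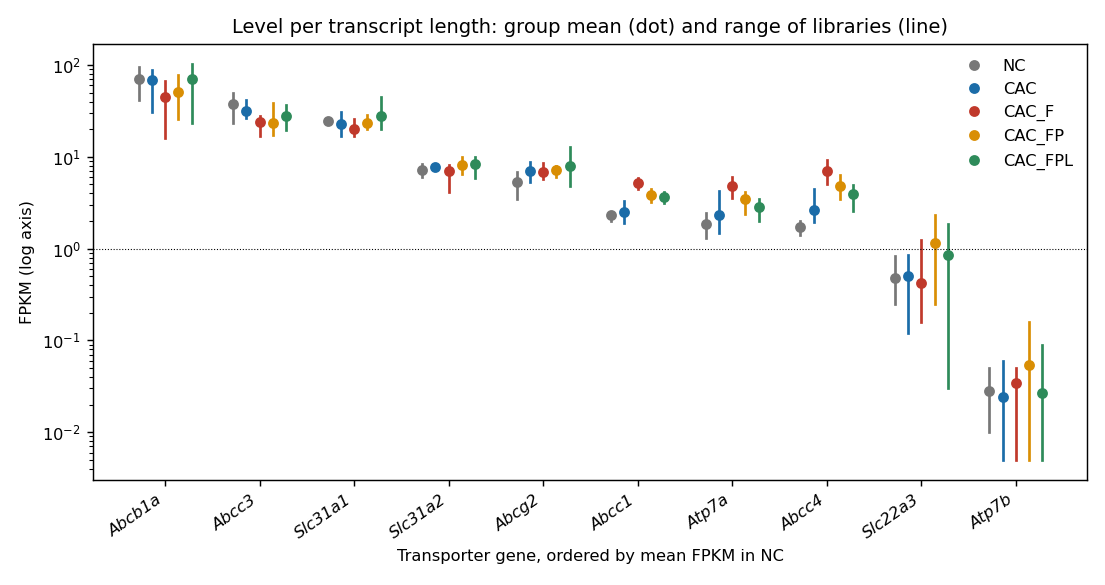
Level per length of the 10 transporter genes in the 5 groups, in FPKM on a log axis. Points are group means and lines run from the lowest to the highest library, with libraries listed at 0 drawn at the lower end of 0.005 FPKM; Abcb1a leads in every group and Atp7b is last in every group.

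The comparison of FOLFOX with untreated neoplasia held calls among the transporters. Between CAC_F and CAC, 3 of the 9 tested members rose and none fell: Abcc1, Abcc4 and Atp7a. Over all tested genes 39.1% were called in this contrast (19.0% higher, 20.2% lower), so 3 of 9 is close to the background share. These and the other calls come from edgeR's quasi-likelihood test with Benjamini-Hochberg adjustment over all 15080 genes, two-sided, at an adjusted p below 0.05. The median log2 fold change of the 9 members was -0.24, against -0.029 for all genes, and their median absolute log2 fold change was 0.50, against 0.36.

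Abcc1 encodes the multidrug resistance protein MRP1, a basolateral exporter of glutathione conjugates (ENSMUSG00000023088, chr16:14179422-14293601, plus strand, in the coordinates as deposited, for which the sources used here name no build). Its level was 31.2, 46.6, 39.2, 35.9 and 57.0 CPM in the CAC libraries and 92.3, 90.0, 69.2, 72.8 and 82.7 CPM in the CAC_F libraries. Every CAC_F library was above every CAC library. The mean went from 42.0 ± 10.1 to 81.4 ± 10.2 CPM (SD, n = 5 each), a 1.94-fold rise (log2 fold change 0.95 ± 0.13 SE, edgeR adjusted p = 3.33e-05). It had no window in the RefSeq promoter table.

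Abcc4 encodes MRP4, an exporter of cyclic nucleotides, prostaglandins and nucleotide analogs (ENSMUSG00000032849, chr14:118720104-118943631, minus strand, deposited coordinates). The CAC libraries held 14.5, 28.6, 14.5, 17.4 and 17.0 CPM and the CAC_F libraries 46.3, 61.1, 32.9, 47.1 and 46.4 CPM. The groups did not overlap, although CAC replicate 2 at 28.6 CPM came near the lowest CAC_F library. The rise was 2.54-fold, from 18.4 ± 5.86 to 46.8 ± 9.99 CPM (log2 fold change 1.35 ± 0.21 SE, edgeR adjusted p = 7.44e-05). Without CAC replicate 2 the log2 fold change was 1.59 (edgeR adjusted p = 1.46e-05). Abcc1 and Abcc4 were 2 members without overlap in the higher direction, where 10.9% of all tested genes were also without overlap.

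Atp7a encodes the copper pump that is mutated in Menkes disease in humans (ENSMUSG00000033792, chrX:105070882-105168532, plus strand, deposited coordinates). Its level was 15.8, 37.6, 24.9, 18.2 and 14.7 CPM in CAC and 58.8, 35.7, 32.1, 52.4 and 41.8 CPM in CAC_F. The groups overlapped through CAC replicate 2 alone, at 37.6 CPM. The mean rose 1.98-fold, from 22.2 ± 9.43 to 44.2 ± 11.2 CPM (log2 fold change 0.99 ± 0.24 SE, edgeR adjusted p = 0.00264). Without CAC replicate 2 the log2 fold change was 1.29 (edgeR adjusted p = 0.000168). With the mean of the smooth muscle markers as a covariate it was 0.75 and the call was lost (edgeR adjusted p = 0.0509).

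**Figure D2:**
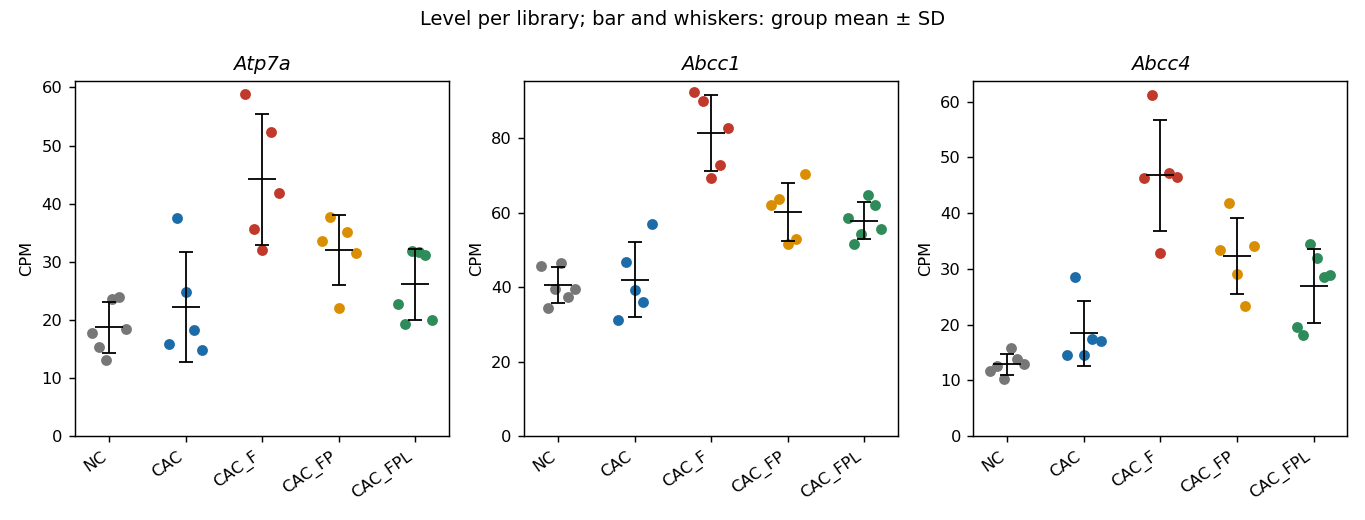
Level of Atp7a, Abcc1 and Abcc4 in each library, in CPM, by group. Points are libraries, the bar is the group mean and whiskers are 1 SD; CAC_F has the highest mean of the 5 groups for each gene, and the CAC library at 37.6 CPM is the one that reaches into the CAC_F range of Atp7a.

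Promoter windows of the risers are shown because Atp7a and Abcc4 moved together and both have one in the RefSeq table of GRCm38.p6. Each run is the 250 bases before the annotated start, 5′ to 3′ on the gene's strand, with capitals marking matches to 3 motif cores on either strand. The antioxidant response core was searched as TGACNNNGC. The metal response core was searched as TGCNCNC, and the xenobiotic response core as GCGTG. Where matches overlap, they form a single capital run. The first window is at chrX:106026974-106027223 (plus strand) and the second at chr14:118706220-118706469 (minus strand).
Atp7a: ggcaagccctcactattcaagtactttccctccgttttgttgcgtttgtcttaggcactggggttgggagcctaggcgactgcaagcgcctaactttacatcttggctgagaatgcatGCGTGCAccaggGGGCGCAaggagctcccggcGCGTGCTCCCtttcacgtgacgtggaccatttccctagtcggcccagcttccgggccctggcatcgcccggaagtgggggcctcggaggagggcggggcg
Abcc4: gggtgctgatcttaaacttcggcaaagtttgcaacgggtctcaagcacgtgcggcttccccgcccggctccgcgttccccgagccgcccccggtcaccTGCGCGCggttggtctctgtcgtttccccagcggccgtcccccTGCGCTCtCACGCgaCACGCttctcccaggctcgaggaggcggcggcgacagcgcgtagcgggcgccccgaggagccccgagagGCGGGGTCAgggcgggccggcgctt

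The Atp7a window held 5 matches, which were 3 metal response cores and 2 xenobiotic response cores. The Abcc4 window shown also held 5, which were 1 antioxidant, 2 metal and 2 xenobiotic response cores. Over the full 300 bases both counts were the same. Another Abcc4 window, not shown, held 2 matches, 1 antioxidant and 1 metal core. Among all 32851 windows of 300 bases in the table, the shares with at least 1 match were 12.4% for the antioxidant core, 51.0% for the metal core and 32.4% for the xenobiotic core. Members that were not called held such matches too. The 300 bases of Slc31a2 held 5, which were 1 antioxidant, 1 metal and 3 xenobiotic cores. For Abcg2, 1 window held 4 and its other windows held none. Abcb1a, Slc22a3 and Atp7b held 1 each, while Slc31a1 held none. Windows existed for 8 of the 10 members, and Abcc1 and Abcc3 had none. A match describes letters only.

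Among the importers, no member was called between CAC_F and CAC. Slc31a1, the main copper importer (ENSMUSG00000066150, chr4:62278964-62310006, plus strand, deposited coordinates), was at 121, 132, 113, 82.7 and 86.3 CPM in CAC and 82.9, 73.7, 112, 104 and 78.2 CPM in CAC_F. These ranges overlapped broadly, and the log2 fold change was -0.25 ± 0.19 SE (edgeR adjusted p = 0.307). With the smooth muscle covariate it was -0.68 (edgeR adjusted p = 0.00838). Slc31a2, a low-affinity relative found on endosomes and lysosomes (ENSMUSG00000066152, chr4:62180799-62216648, plus strand, deposited coordinates), stood at 16.4, 16.8, 17.8, 18.8 and 17.2 CPM in CAC and 9.53, 17.2, 15.4, 16.6 and 15.1 CPM in CAC_F. Only CAC_F replicate 1 lay well below the rest. The log2 fold change was -0.24 ± 0.15 SE (edgeR adjusted p = 0.203).

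Slc22a3 encodes the organic cation transporter OCT3 (ENSMUSG00000023828, chr17:12637847-12726591, minus strand, deposited coordinates). It passed the filter through 6 libraries alone, of which 1 was CAC_F, 3 were CAC_FP and 2 were CAC_FPL. Its level was 2.84, 0.557, 2.09, 4.37 and 2.93 CPM in CAC and 0.859, 5.72, 1.52, 0.976 and 0.732 CPM in CAC_F. One CAC_F library was high and the other four were low. The log2 fold change was -0.38 ± 0.76 SE (edgeR adjusted p = 0.720), an error too wide to give a direction.

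Atp7b, the copper pump affected in Wilson disease in humans (ENSMUSG00000006567, chr8:22482801-22550321, minus strand, deposited coordinates), is known for its role in liver. It reached 0 to 74 counts per library and at no point an FPKM of 1. Group means were 0.220 CPM in NC, 0.179 in CAC, 0.229 in CAC_F, 0.381 in CAC_FP and 0.181 in CAC_FPL. Of the 27 libraries 5 held 0 counts, which allows up to 0.0418 to 0.0562 CPM in those libraries (3 counts, counting error only). In the edgeR fit with no filter its log2 fold changes were -0.31 in CAC against NC, 0.39 in CAC_F against CAC, 0.72 in CAC_FP against CAC_F and -1.11 in CAC_FPL against CAC_FP, and none was called (edgeR adjusted p 0.847 to 1.0).

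The remaining exporters were not called between CAC_F and CAC. Abcb1a encodes the P-glycoprotein of the intestinal lining (ENSMUSG00000040584, chr5:8710077-8798575, plus strand, deposited coordinates). It was at 459, 171, 497, 456 and 548 CPM in CAC and 412, 90.9, 153, 318 and 331 CPM in CAC_F. The CAC_F values were mostly lower, but CAC replicate 2 at 171 CPM lay inside the CAC_F range. The log2 fold change was -0.71 ± 0.41 SE (edgeR adjusted p = 0.173). It was -0.075 with the smooth muscle covariate and -0.91 at its lowest when 1 library was left out. Abcb1a has a closely related neighbour, Abcb1b, and the sources used here do not say how reads shared between them were counted, so both are uncertain.

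Abcc3 encodes MRP3, a basolateral exporter of bile salts and glucuronides (ENSMUSG00000020865, chr11:94234121-94283823, minus strand, deposited coordinates). It stood at 168, 201, 276, 186 and 173 CPM in CAC and 148, 98.5, 150, 168 and 143 CPM in CAC_F. The 2 groups met at a single value near 168 CPM. The log2 fold change was -0.50 ± 0.25 SE (edgeR adjusted p = 0.109), and with the mean of the epithelial markers as a covariate it was -0.50 with an edgeR adjusted p of 0.0345. Abcg2, the breast cancer resistance protein (ENSMUSG00000029802, chr6:58561508-58672661, plus strand, deposited coordinates), was at 64.7, 44.0, 59.2, 81.7 and 64.7 CPM in CAC and 64.5, 48.3, 48.0, 73.5 and 59.6 CPM in CAC_F. These were almost the same range, with a log2 fold change of -0.10 ± 0.25 SE (edgeR adjusted p = 0.783).

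The makeup of the tissue moved in the same contrast. Of 11 smooth muscle markers 10 fell in CAC_F against CAC, with a summed level of 3746 to 17153 CPM in CAC and 1941 to 3357 CPM in CAC_F. Of 10 goblet cell markers 6 fell, from a sum of 19034.5 to 54497 CPM to one of 2676 to 22567 CPM. Of 12 absorptive colonocyte markers 3 fell, from 2323 to 9965 CPM to 1105 to 4808 CPM. Of 9 proliferation markers 8 rose, from a sum of 566 to 1004 CPM to one of 1166 to 1563 CPM. Of 9 macrophage markers 6 rose, from 383 to 501 CPM to 607 to 1396 CPM. Of 6 measured neutrophil markers 3 rose, and the sum of all 9 listed went from 13.9 to 137 CPM to 286 to 1072 CPM. Ly6g carried most of the sum in CAC_F, at 268 to 1050 CPM against 2.26 to 92.2 CPM in CAC. Retnlg was at 1.26 to 4.37 CPM in CAC_F and 2.04 to 5.99 CPM in CAC. Of the 9 listed, 5 (Camp, Cxcr2, Ngp, S100a8 and S100a9) were at 0 in some libraries. The 12 epithelial markers kept overlapping sums, 7236 to 11489 CPM in CAC and 7543 to 12038 CPM in CAC_F, and 2 rose and 1 fell. None of the 9 endothelial markers was called, with sums of 189 to 313 CPM and 197 to 609 CPM. Of 8 fibroblast markers 1 rose and 2 fell, of 8 measured enteric neuron and glia markers 1 fell, of 3 measured squamous markers 1 rose, and none of the adipocyte or distal segment markers was called. No smooth muscle, proliferation, macrophage, epithelial or endothelial marker was at 0 in any library. Fits with smooth muscle or epithelial markers as a covariate kept the calls of Abcc1 and Abcc4. Atp7a lost its call with smooth muscle (edgeR adjusted p = 0.0509). The smooth muscle sums did not overlap between CAC and CAC_F. The smooth muscle fits given here and above therefore cannot tell that shift from FOLFOX, and its part in the rises was not tested. No fit held the proliferation, macrophage, neutrophil or goblet markers, so their part was not tested.

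AOM/DSS itself was not accompanied by a called change in any of the 9 members. CAC against NC gave 1 called gene among all 15080 (0.00663%), with 1164 genes at an unadjusted p below 0.05 and 41 called by DESeq2. Abcc4 had the largest difference of the members. It was at 10.2, 12.8 and 15.9 CPM in NC (lowest, median and highest of 6) and at 14.5 to 28.6 CPM in CAC, with a log2 fold change of 0.52 ± 0.20 SE (edgeR adjusted p = 0.517). Without CAC replicate 2 this was 0.31. Values for the other exporters were 0.31 ± 0.24 for Abcg2, 0.052 ± 0.12 for Abcc1, -0.30 ± 0.24 for Abcc3 and -0.069 ± 0.39 for Abcb1a, all as log2 fold change ± SE. Atp7a differed by 0.25 ± 0.23, and by -0.021 without CAC replicate 2. Abcb1a was at 0.13 without that library. Among the importers the difference was -0.18 ± 0.18 for Slc31a1, 0.045 ± 0.14 for Slc31a2 and 0.028 ± 0.73 for Slc22a3, in the same unit. Slc31a1 was the steadiest of the members in NC, at 114, 120 and 128 CPM (lowest, median and highest).

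Adding probiotics to FOLFOX gave no called member between CAC_FP and CAC_F. No gene was called at all (0% of 15080) by edgeR, although 2401 genes were at an unadjusted p below 0.05 and DESeq2 called 244. The 3 members that had risen with FOLFOX were each lower in mean here. Abcc1 was at 62.0, 63.7, 51.5, 53.0 and 70.4 CPM in CAC_FP, so 1 library overlapped CAC_F, and the log2 fold change was -0.44 ± 0.13 SE (edgeR adjusted p = 0.149). Leaving out CAC_F replicate 3 alone brought this to an edgeR adjusted p of 0.0435. Abcc4 was at 33.4, 41.8, 29.1, 23.3 and 34.1 CPM in CAC_FP, with a log2 fold change of -0.53 ± 0.20 SE (edgeR adjusted p = 0.214). Atp7a was at 33.6, 37.7, 22.1, 35.1 and 31.4 CPM, with a log2 fold change of -0.46 ± 0.24 SE (edgeR adjusted p = 0.342). These 2 overlapped the CAC_F libraries as well.

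Slc22a3 was spread widely in CAC_FP, at 11.0, 1.21, 6.27, 1.31 and 7.29 CPM, with 3 high and 2 low libraries. Its log2 fold change against CAC_F was 1.47 ± 0.78 SE (edgeR adjusted p = 0.355). The other 5 members had log2 fold changes between -0.039 and 0.22: 0.22 ± 0.19 SE for Slc31a1, 0.22 ± 0.15 for Slc31a2, 0.17 ± 0.41 for Abcb1a, 0.075 ± 0.25 for Abcg2 and -0.039 ± 0.25 for Abcc3. In Abcc3, CAC_FP replicate 4 was at 229 CPM and the other 4 libraries at 104 to 134 CPM.

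Adding loperamide gave no called member between CAC_FPL and CAC_FP. No gene of the table was called (0%) by edgeR, with 995 genes at an unadjusted p below 0.05 and 21 called by DESeq2. Abcb1a had the largest difference of the members, at 129, 497 and 584 CPM in CAC_FPL (lowest, median and highest of 6) and 364, 261, 149, 440 and 258 CPM in CAC_FP. The CAC_FPL libraries fell into 4 high and 2 low ones, and the log2 fold change was 0.50 ± 0.39 SE (edgeR adjusted p = 0.801). Slc31a1 was at 88.2, 120 and 208 CPM in CAC_FPL and 91.0, 93.6, 125, 127 and 90.7 CPM in CAC_FP, with the highest value of all 27 libraries in CAC_FPL replicate 3. Its log2 fold change was 0.28 ± 0.18 SE (edgeR adjusted p = 0.770), and 0.078 without that library. The other log2 fold changes were -0.43 ± 0.72 SE for Slc22a3, 0.30 ± 0.24 for Abcc3, -0.29 ± 0.23 for Atp7a, -0.26 ± 0.19 for Abcc4, 0.16 ± 0.24 for Abcg2, 0.058 ± 0.14 for Slc31a2 and -0.057 ± 0.12 for Abcc1.

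**Figure D3:**
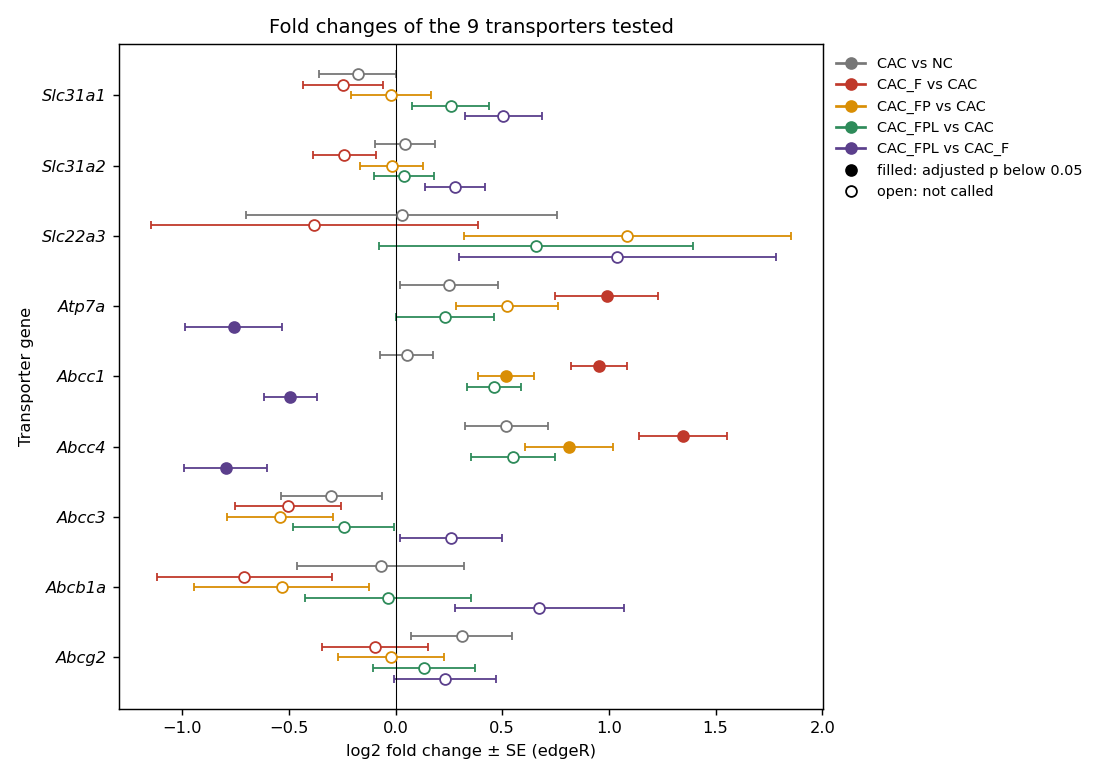
Log2 fold change of the 9 tested members, with whiskers of 1 SE. The comparisons drawn are CAC against NC, CAC_F, CAC_FP and CAC_FPL against CAC, and CAC_FPL against CAC_F. Filled points passed an edgeR adjusted p below 0.05; the filled points belong to Abcc1, Abcc4 and Atp7a, higher against CAC and lower against CAC_F.

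Set against CAC, the same genes had smaller log2 fold changes in CAC_FP than in CAC_F, and the difference between those groups was itself not called. Abcc1 and Abcc4 were still called in CAC_FP against CAC, 2 of 9 members, where 18.6% of all genes were called. The log2 fold change was 0.52 ± 0.13 SE for Abcc1 (edgeR adjusted p = 0.0102). For Abcc4 it was 0.81 ± 0.21 SE (edgeR adjusted p = 0.0103), and 1.05 without CAC replicate 2 (edgeR adjusted p = 0.00145). Both overlapped the CAC libraries. Abcc1 missed the threshold in a fit of only the groups compared (edgeR adjusted p = 0.0553), and Abcc4 missed it with the smooth muscle covariate (edgeR adjusted p = 0.0706). Atp7a was at 0.52 ± 0.24 SE and missed the threshold (edgeR adjusted p = 0.121), and reached 0.82 without CAC replicate 2 (edgeR adjusted p = 0.0120). In this contrast 10 of 11 smooth muscle and 3 of 10 goblet markers were lower. Higher were 3 of 9 macrophage, 3 of 9 proliferation, 1 of 6 measured neutrophil, 1 of 8 fibroblast and 1 of 3 measured squamous markers. The part of these shifts in the values was not tested.

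In CAC_FPL against CAC none of the 9 was called, where 1.41% of all genes were (212 genes, with 2837 at an unadjusted p below 0.05 and 860 called by DESeq2). Abcc1 came closest, at 51.7, 57.1 and 64.6 CPM in CAC_FPL (lowest, median and highest), with a log2 fold change of 0.46 ± 0.13 SE and an edgeR adjusted p of 0.0574. It passed in 9 of 21 alternatives, DESeq2 among them (DESeq2 adjusted p = 0.0149), and without CAC replicate 2 (edgeR adjusted p = 0.0328), CAC replicate 5 (0.0222) or CAC_FPL replicate 3 (0.0412). Abcc4 was at 0.55 ± 0.20 SE (edgeR adjusted p = 0.133), and at 0.78 without CAC replicate 2 (edgeR adjusted p = 0.0222). Atp7a was at 0.23 ± 0.23 SE (edgeR adjusted p = 0.608). When 1 library was left out, Atp7a was at 0.52 at its highest, with edgeR adjusted p of 0.1495 or more throughout. In this contrast 2 of 10 goblet markers and 1 of 6 measured neutrophil markers were lower, and 1 of 3 measured squamous markers was higher. None of the 11 smooth muscle markers was called, with a median log2 fold change of -0.89. Their part in these values was not tested beyond the fits with smooth muscle or epithelial markers as a covariate.

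The same 3 genes were lower in CAC_FPL than in CAC_F, and no member was higher, where 12.2% of all genes were called (5.05% lower). These comparisons share the CAC_F libraries with the FOLFOX contrast. Abcc4 was at 18.1, 28.8 and 34.5 CPM in CAC_FPL against 32.9 to 61.1 CPM in CAC_F, a log2 fold change of -0.80 ± 0.19 SE (edgeR adjusted p = 0.0150). Abcc1 was at 51.7 to 64.6 CPM against 69.2 to 92.3 CPM, a log2 fold change of -0.49 ± 0.12 SE (edgeR adjusted p = 0.0163). Atp7a was at 19.3, 26.9 and 31.8 CPM against 32.1 to 58.8 CPM, a log2 fold change of -0.76 ± 0.23 SE (edgeR adjusted p = 0.0334). Abcc1 and Atp7a did not overlap between these groups, as was the case in the lower direction for 1.46% of all genes, and Abcc4 overlapped by 1 library of CAC_F.

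The calls of lower levels in CAC_FPL were lost in 3 of 22 alternatives for Abcc1, 3 of 22 for Abcc4 and 10 of 22 for Atp7a. The rises with FOLFOX were lost in 0 of 21, 0 of 21 and 1 of 21. Without CAC_F replicate 2 all 3 calls were lost (edgeR adjusted p 0.0532 for Abcc1, 0.0570 for Abcc4 and 0.0550 for Atp7a), and they were lost in a fit of only the 2 groups, in which no gene of the table was called. Atp7a also missed the threshold without CAC_F replicate 1 (edgeR adjusted p = 0.1004) or 4 (0.0614), or without CAC_FPL replicate 1 (0.0770) or 2 (0.0862). Slc31a1 had a positive log2 fold change of 0.51 ± 0.18 SE that missed the threshold (edgeR adjusted p = 0.0648). It passed in 7 of 23 alternatives, among them those without CAC_F replicate 3 or CAC_FPL replicate 4, 5 or 6 (edgeR adjusted p 0.0330 to 0.0485). With each library left out in turn it ran from 0.29 to 0.58, at an edgeR adjusted p of up to 0.215. For this gene CAC_FPL replicate 3 was at 208 CPM, against 88.2 to 140 CPM in the other CAC_FPL libraries. In this contrast 2 of 9 proliferation markers, 1 of 6 measured neutrophil markers and none of the macrophage or smooth muscle markers were lower, and 3 of 12 absorptive colonocyte markers were higher. Their part in the result was not tested beyond the fits with smooth muscle or epithelial markers as a covariate.

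The order of group means was the same for Abcc1, Abcc4 and Atp7a: NC lowest, then CAC, CAC_FPL, CAC_FP and CAC_F. No step between neighbours in this order was called for any of them, and the calls lay between groups further apart in it.

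**Figure D4:**
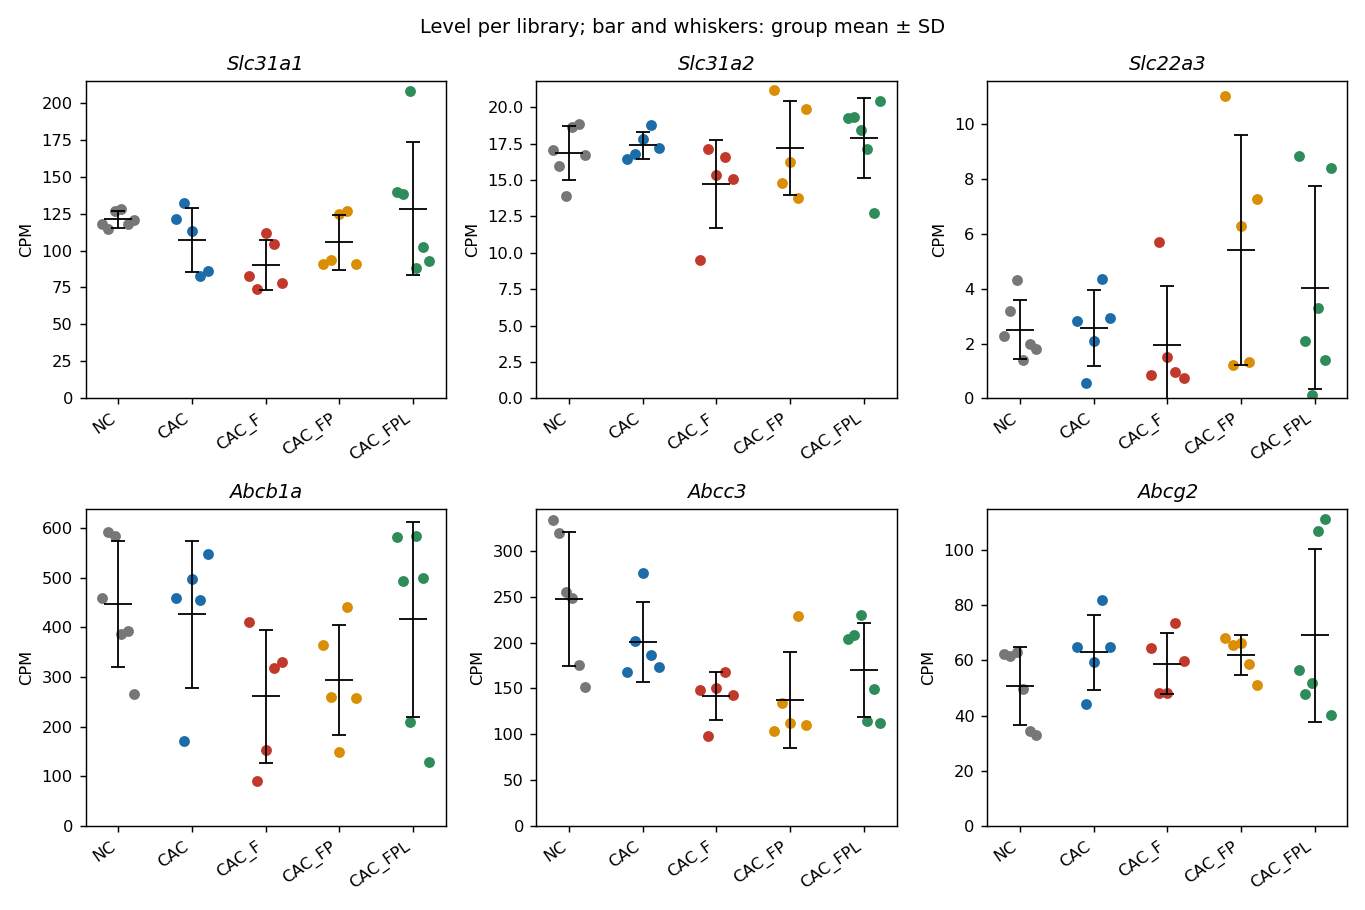
Level of the 6 other tested members in each library, in CPM, by group. Points are libraries, the bar is the group mean and whiskers are 1 SD, cut at 0; the groups overlap for every gene drawn in each comparison tested.

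The copper pump and the copper importer were also set against each other within each library. Per 100 FPKM of Slc31a1 there were 5.04 to 9.91 FPKM of Atp7a in NC (median 7.40), 6.41 to 13.9 in CAC (median 10.8) and 14.0 to 34.8 in CAC_F (median 24.6). Every CAC_F library was above every CAC library, although the nearest values were 13.9 and 14.0. The medians were 17.0 in CAC_FP (8.675 to 19.7) and 9.26 in CAC_FPL (6.85 to 17.6), and both ranges overlapped that of CAC. Among the exporters, Abcc4 per 100 FPKM of Abcc3 had medians of 4.60 in NC, 8.33 in CAC, 27.9 in CAC_F, 27.7 in CAC_FP and 15.2 in CAC_FPL. The CAC libraries reached at most 12.7 and the CAC_F libraries started at 19.5. The range was 9.04 to 28.7 in CAC_FP and 7.72 to 25.0 in CAC_FPL, and both reached into that of CAC. Each pair set a called riser over a member with a negative log2 fold change in CAC_F against CAC. The gap between these groups thus follows in part from the choice of pairs. By group median Abcb1a still held the largest share of the summed FPKM of the members, at 51.0% in CAC (25.3 to 56.95%) and 39.3% in CAC_F (19.2 to 49.0%). It was not first in every library: in CAC_F replicate 2 it was at 16.15 FPKM and Abcc3 at 16.84 FPKM. These ratios are descriptions with no test.

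Across the 27 libraries the risers also varied with each other. Pearson's r of log2 CPM was 0.87 between Abcc1 and Abcc4, 0.85 between Atp7a and Abcc4 and 0.76 between Atp7a and Abcc1. After the group means were removed these were 0.47, 0.60 and 0.30, lower than over all libraries. Over all libraries the most negative r was that of Abcc3 and Abcc4, at -0.69. Within groups it was -0.40 for that pair, and the most negative was that of Atp7a and Slc22a3, at -0.60. The points share library depth and tissue makeup.

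The 3 tested genes most like each riser were picked by r over the 27 libraries. For Abcc1 they were Cldn4, a tight junction claudin (0.94), Lama5, a basement membrane laminin chain (0.94), and Vill, a villin relative (0.93). For Abcc4 they were Macc1 (0.96), the death receptor Tnfrsf10b (0.95) and the annexin Anxa3 (0.94). For Atp7a they were Eif4g3, a translation initiation factor (0.90), Gna14, a G protein subunit (0.88), and Sh3kbp1, an adaptor of receptor endocytosis (0.88). After the group means were removed every one of these values was lower. In the same order they were 0.75, 0.80 and 0.70 for Abcc1, 0.78, 0.77 and 0.81 for Abcc4, and 0.74, 0.74 and 0.66 for Atp7a.

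For Slc31a1 the list held Myl12b (0.90), Ak3 (0.88) and Scd2 (0.88), and for Slc31a2 Rem1 (0.76), Stx2 (0.76) and Ccdc69 (0.74). Slc22a3 was most like Adhfe1 (0.92), Cdo1 (0.87) and Mmd (0.83), Abcb1a like Gm1123 (0.90), Tm7sf3 (0.90) and Ppp1r37 (0.90), Abcc3 like Gal3st1 (0.90), Hpcal1 (0.88) and Ssbp3 (0.88), and Abcg2 like Iyd (0.79), Sccpdh (0.76) and Tspan8 (0.75). No member was among the closest 3 of another.

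Other genes of copper and drug transport gave a mixed picture in CAC_F against CAC. Of 18 measured copper-handling genes 5 rose and 3 fell, with a median log2 fold change of 0.069. The copper-binding ferroxidase Cp went from 25.0 ± 4.63 to 131 ± 106 CPM (log2 fold change 2.40 ± 0.50 SE, edgeR adjusted p = 0.000834). The metal reductases parted, with Steap4 at 2.51 ± 0.59 (edgeR adjusted p = 0.00216) and Steap3 at -1.36 ± 0.29 (edgeR adjusted p = 0.000891). The metallothionein Mt2, which binds copper, zinc and platinum, was at 3.85 ± 0.90 (edgeR adjusted p = 0.00200).

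Of 11 listed further ABC exporters 7 were measured, and 2 rose and 2 fell. Abcb8, a mitochondrial transporter, was at a log2 fold change of 0.56 ± 0.12 SE (edgeR adjusted p = 0.000784), and Abcc6 at -2.50 ± 0.56 (edgeR adjusted p = 0.00145). Abcb1b, the closely related neighbour of Abcb1a, rose from 11.7 ± 1.47 to 20.0 ± 7.00 CPM, a log2 fold change of 0.78 ± 0.21 SE (edgeR adjusted p = 0.00634). Abcc10 was at -0.55 ± 0.19 (edgeR adjusted p = 0.0248).

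Of 26 genes listed as further drug importers, a list that also held Tmem205, 19 were measured, and 7 rose and 2 fell. The reduced folate carrier Slc19a1 was at 1.00 ± 0.20 (log2 fold change ± SE, edgeR adjusted p = 0.000687). Lrrc8d and Lrrc8b, subunits of the volume-regulated anion channel that admits platinum drugs, were at 0.43 ± 0.11 (edgeR adjusted p = 0.00403) and 0.66 ± 0.18 (edgeR adjusted p = 0.00554). Tmem205, which has been linked to platinum resistance rather than uptake, was among those that fell, at -1.14 ± 0.19 (edgeR adjusted p = 0.000126).

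Of 14 measured regulators of such genes 1 rose and 5 fell. The riser was Hif1a, the oxygen-sensing factor, at 1.60 ± 0.36 (edgeR adjusted p = 0.00138). Lower were the vitamin D receptor Vdr at -1.80 ± 0.38 (edgeR adjusted p = 0.000891), the antioxidant factor Nfe2l2 at -0.80 ± 0.20 (edgeR adjusted p = 0.00352) and the lipid sensor Ppara at -1.82 ± 0.48 (edgeR adjusted p = 0.00493). Each of these counts sits beside the 39.1% of all genes called in this contrast. Between CAC_FPL and CAC_FP none of the 4 lists had a called gene, as no gene of the table was called.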

How the data were processed

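Expression was measured by RNA sequencing of 27 colon samples, from Trizol RNA and dUTP-stranded libraries per the labels' protocols. The authors deposited raw counts per gene, whole numbers with no normalization, and FPKM values per gene and library, scaled by gene length and depth. Cutadapt 1.9, HISAT2 and FastQC were used, per the submitters' processing notes. The sources used here name neither the counting tool, its strand setting, the annotation nor the build.

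A gene was kept if its FPKM reached 1 in 5 or more libraries (15080 of 39971). Counts were scaled by TMM and fitted with 1 coefficient per group in edgeR 4.0.16 (R 4.3.3), with quasi-likelihood tests, two-sided, and Benjamini-Hochberg adjustment over all genes kept, called below 0.05. The SE of a log2 fold change is its absolute value over the square root of the F statistic. Totals were 56687812 to 79709845 counts per library. The test was checked on simulated data for CAC_F against CAC, where it recovered 69 of 100 genes changed 2-fold and 87 of 100 changed 4-fold among 15080, with 14 false calls. Far fewer genes were changed in the simulation than were called in the real contrast, so these shares need not hold there.

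Samples were grouped by their titles. Comparisons were 4 main ones, each group with the next, and 3 further ones. Alternatives were no filter, a stricter filter at a mean FPKM of 5, median-ratio size factors, DESeq2 1.42.0, limma 3.58.1 on log2(FPKM + 1) and log2(FPKM + 0.1), a replicate block, only the groups compared, smooth muscle or epithelial markers as a covariate, pairs of libraries left out and each library left out. The fit without CAC_F replicates 1 and 2 was chosen after seeing the data. All 10 members were named in the main comparisons, and in the further ones counts with called members and the risers that were not. From each list of related genes up to 4 called genes with the smallest adjusted p were named. The members and lists were chosen with earlier results of these data known. Promoter sequences came from RefSeq, GRCm38.p6.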

Additional observations from a re-analysis of the deposited data

Results flagged for a closer look

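Each member was checked in each group for a library far from the others by Dixon's criterion, which chance meets in about 1 in 20 groups. Of 50 combinations 6 met it, where 2.5 would be met by chance. CAC replicate 2 gave 2 of them: Abcc4 was at 28.6 CPM against 14.5 to 17.4 CPM in the other 4 libraries, and Abcb1a was at 171 CPM against 456 to 548 CPM. In CAC_F replicate 1 Slc31a2 was at 9.53 CPM against 15.1 to 17.2 CPM. In CAC_F replicate 2 Slc22a3 was at 5.72 CPM against 0.732 to 1.52 CPM. In CAC_FP replicate 4 Abcc3 was at 229 CPM against 104 to 134 CPM. In CAC_FPL replicate 3 Atp7b was at 0.629 CPM against 0 to 0.214 CPM. The libraries CAC replicate 2 and CAC_FPL replicate 3 are those with high distal segment markers, and the part of tissue position in these values was not tested.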

How the results depend on the processing

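Of 979 values of members under alternatives, 902 kept their sign and their side of the threshold, 19 lost a call, 23 gained one and 35 changed sign, none of the last from a called value. The log2 fold changes that changed sign were, with the epithelial covariate in CAC against NC, 0.17 for Slc31a1, -0.075 for Slc31a2, -0.87 for Slc22a3, -0.12 for Abcc1, 0.20 for Abcc3 and 0.083 for Abcb1a. In the same comparison they were -0.065 for Slc22a3 with the smooth muscle covariate, -0.0038 with no filter and -0.015 with limma on log2(FPKM + 0.1). Without CAC replicate 2 and CAC_FPL replicate 3 together they were -0.021 for Atp7a and 0.13 for Abcb1a. In CAC_F against CAC the smooth muscle covariate gave 0.67 for Slc22a3 and 0.19 for Abcg2.

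With each library left out in turn, log2 fold changes in CAC against NC ran from -0.0045 to 0.079 for Slc31a2, from -0.021 to 0.37 for Atp7a, from -0.25 to 0.29 for Slc22a3, from -0.083 to 0.14 for Abcc1 and from -0.18 to 0.13 for Abcb1a. They ran from -0.18 to 0.016 for Abcg2 in CAC_F against CAC, from -0.31 to 0.041 for Abcc3 and from -0.051 to 0.39 for Abcb1a in CAC_FP against CAC_F, and from -0.022 to 0.13 for Slc31a2 and from -0.040 to 0.26 for Abcg2 in CAC_FPL against CAC_FP.

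Counts of called genes over the whole table moved by more than 1.5 times as follows. CAC against NC, 1 called gene, gave 41 with DESeq2, 2 and 3 with limma on log2(FPKM + 0.1) and log2(FPKM + 1), and 0 with the epithelial covariate, the replicate block or only the groups compared. CAC_F against CAC, 5902 genes, gave 3708 at a mean FPKM of at least 5, where fewer genes are tested. CAC_FP against CAC, 2802 genes, gave 1526 with the smooth muscle covariate. CAC_FP against CAC_F and CAC_FPL against CAC_FP, each with 0, gave 244 and 21 with DESeq2. CAC_FPL against CAC, 212 genes, gave 860 with DESeq2, 537 with the epithelial covariate, 82 with no filter, 9 with only the groups compared, 95 with the replicate block and 1267 without CAC replicate 2 and CAC_FPL replicate 3. CAC_FPL against CAC_F, 1838 genes, gave 743 with no filter, 1112 without those 2 libraries, and 0 both with only the groups compared and without CAC_F replicates 1 and 2. Except where fewer genes or samples enter, the cause was not tested. Leaving out 1 library gave 0 to 4 genes in CAC against NC, 1515 to 3448 in CAC_FP against CAC (3867 without both CAC replicate 2 and CAC_FPL replicate 3), 0 to 616 in CAC_FP against CAC_F, 23 to 797 in CAC_FPL against CAC, 426 to 2540 in CAC_FPL against CAC_F, 0 to 4 in CAC_FPL against CAC_FP and 4905 to 6102 in CAC_F against CAC.

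The groups share replicate numbers. In CAC_F against CAC the deviations of same-numbered samples correlated at 0.0163 to 0.258, over 0.1 in 4 of 5 pairs, and 3 of 5 samples correlated best with their own number. In CAC_FP against CAC_F the values were -0.147 to 0.360, over 0.1 in 4 of 5 pairs, and 2 of 5. In the other comparisons 0 to 2 of 5 pairs were over 0.1. These values hint at a shared factor in the first 2 comparisons, but no comparison had every pair over 0.1 and the labels give the numbers no meaning, so the samples were not treated as paired. With the replicate block 5723 genes were called in CAC_F against CAC, 2596 in CAC_FP against CAC and 2053 in CAC_FPL against CAC_F, and 0 in CAC_FP against CAC_F and CAC_FPL against CAC_FP. In CAC_FPL against CAC_F the block left Atp7a at -0.71 (edgeR adjusted p = 0.0581) and put Slc31a1 at 0.52 (edgeR adjusted p = 0.0423), and it changed no other call of a member. Levels as a percent of NC from the deposited FPKM moved by less than the spread between replicates in 39 of 40 cases; Abcc1 in CAC_FPL was the exception. Low counts limit Atp7b, at 0 to 74 per library.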
